A study of Homo sapiens with 12 samples.

Results

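The 10 genes described here, *DUSP4*, *DUSP5*, *DUSP6*, *SPRY2*, *SPRY4*, *SPRED1*, *SPRED2*, *IL17RD*, *ETV4* and *ETV5*, encode feedback regulators and transcriptional outputs of the ERK pathway. They were chosen by symbol from the 60580 genes listed for each library, and all 10 were found and passed the filter on low counts, with 171 to 14991 counts per library. In this pathway, growth factor receptors activate RAS, which signals through the kinases RAF and MEK to ERK. Active ERK raises the transcription of genes whose products restrain the pathway at several levels. The DUSP proteins are phosphatases that inactivate ERK, Sprouty and Spred proteins act on the steps around RAS and RAF, and IL17RD, also called Sef, restrains signaling by fibroblast growth factor receptors and ERK. *ETV4* and *ETV5* encode ETS transcription factors of the PEA3 group. The mRNA levels of such genes are widely used as a readout of ERK output in tumor cells.

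The cells were HCT116, an established human colorectal cancer line with functional p53. *WT* cells were compared with *miR-34a/b/c-KO* cells, below named *KO*, which lack the regions encoding miR-34a and miR-34b/c after deletion by CRISPR/Cas9. Cells of either genotype were treated with DMSO or with 5-FU (4 µM) for 48 h. 5-FU is a pyrimidine analog that disturbs nucleotide synthesis, and miR-34a, miR-34b and miR-34c are microRNAs encoded by p53 target genes. Both genotypes were obtained as single-cell clones after transfection with Cas9 plasmids, that of the *WT* cells without a guide, and the 3 replicates per state are described as biological. The sources used here do not say whether they are different clones, so that p-values measure the spread between these libraries. If the replicates are not different clones, differences between the genotypes cannot be told apart from differences between clones. The file labelled as replicate 1 of *WT* cells treated with 5-FU was identical to replicate 3 of *WT* cells treated with DMSO and was left out. 11 libraries remained, with 2 for *WT* cells treated with 5-FU (replicates 2 and 3) and 3 for each other state.

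The sequences that link these genes to the deleted microRNAs are shown first, because a microRNA recognizes mRNAs chiefly by base pairing of its seed (bases 2 to 8) with the 3′ UTR. The mature sequences are given 5′ to 3′ with the seed in capitals, from RefSeq (GRCh38.p14, chr1:9151735-9151756, minus strand, and chr11:111512950-111512972, plus strand).
hsa-miR-34a-5p: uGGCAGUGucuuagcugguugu
hsa-miR-34b-5p: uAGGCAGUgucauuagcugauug
miR-34c-5p is the other member. The seeds of miR-34a-5p and miR-34b-5p are offset by 1 base, so that their target words (CACTGCC and ACTGCCT) differ. In the 3′ UTR of the canonical transcript, *SPRED1* and *DUSP4* each held 1 match to the miR-34a word and *IL17RD* held 1 match to the miR-34b word, whereas the other 7 genes held no match to either. The sites of *SPRED1* (chr15:38354267-38354295, plus strand) and *IL17RD* (chr3:57094796-57094824, minus strand) are shown with the match in capitals, read from the GRCh38 genome.
SPRED1 site: tacagattcggCACTGCCaattggctttt
IL17RD site: tgagctgcaagACTGCCTccccataacaa
The matches of *SPRED1* and *DUSP4* are followed by an A and thus are 8mer matches, and that of *IL17RD* is a 7mer-m8 match. Such words are common in long 3′ UTRs. Of UTRs within 20% of the length of that of *SPRED1* (5585 bases), 35.6% held the miR-34a word, of UTRs as long as that of *DUSP4* (3962 bases) 27.2% did, and of UTRs as long as that of *IL17RD* (6411 bases) 40.3% held the miR-34b word. A match is a description of these letters and not evidence of binding.

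Promoters of *SPRY2* and *SPRY4* are shown because these Sprouty genes differed in opposite directions between the genotypes in DMSO. Each holds the 300 bases around a transcription start, most of them upstream (RefSeq, GRCh38.p14, minus strand), at chr13:80341077-80341376 for *SPRY2* and chr5:142324198-142324497 for *SPRY4*. Capitals mark the short CRE word (TGACG) in both and an ETS core (CCGGAA) in *SPRY2*, the only matches found.
SPRY2 promoter: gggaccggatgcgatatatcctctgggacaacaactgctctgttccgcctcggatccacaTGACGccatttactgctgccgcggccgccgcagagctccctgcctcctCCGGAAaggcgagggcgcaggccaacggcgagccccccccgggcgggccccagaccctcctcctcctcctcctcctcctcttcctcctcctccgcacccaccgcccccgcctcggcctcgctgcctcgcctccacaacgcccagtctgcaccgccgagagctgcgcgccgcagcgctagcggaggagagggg
SPRY4 promoter: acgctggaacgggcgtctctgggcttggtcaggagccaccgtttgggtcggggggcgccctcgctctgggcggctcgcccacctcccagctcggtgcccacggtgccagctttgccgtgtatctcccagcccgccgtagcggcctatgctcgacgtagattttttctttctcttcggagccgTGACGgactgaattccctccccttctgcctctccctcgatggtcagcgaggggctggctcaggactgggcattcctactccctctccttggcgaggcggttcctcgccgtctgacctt
Both strands were searched for CCGGAAG and the shorter CCGGAA it contains, for the CRE TGACGTCA and the shorter TGACG it contains, and for the AP-1 word TGACTCA, in 10 promoters of 6 of the genes. Apart from the matches above, *SPRED2* held TGACG in 1 promoter and TGACTCA in another, whereas the promoters of *DUSP6*, *IL17RD* and *SPRED1* and the other 2 of *SPRY2* held none of these words. Of 35116 RefSeq promoters of this length, 24.6% held TGACG, 17.2% CCGGAA, 10.3% CCGGAAG, 4.95% TGACTCA and 1.85% TGACGTCA. *DUSP4*, *DUSP5*, *ETV4* and *ETV5* were not searched.

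Total counts on genes ranged from 22831415 to 39064210 per library. The microRNA genes *MIR34A*, *MIR34B* and *MIR34C* had 0 counts throughout and give no check of the genotype labels, and *MIR34AHG*, the host transcript of miR-34a, had 4.25 to 5.25 CPM (here counts per 1000000 total counts) in *WT* and 21.5 to 22.4 in *KO* cells with DMSO. *CDKN1A*, the p53-induced gene of p21, had 158 to 165 CPM in *WT* and 452 to 479 in *KO* cells with DMSO, and 1970 to 2650 in the 5 libraries with 5-FU. All 7 epithelial markers checked had at least 20 counts in some library, with summed levels of 5470 to 5840 CPM with DMSO and 9400 to 12500 with 5-FU. The intestinal marker *VIL1* remained at or below 2.21 CPM. Of 6 fibroblast, 4 leukocyte and 3 endothelial markers, 2, 1 and 1 reached 20 counts in a library and none was at 0 in all of them. The summed levels of each of these lists were also higher with 5-FU in either genotype, and those of fibroblast markers were higher in *KO* cells as well. Fibroblast markers summed to 21.1 to 26.3 CPM in *WT* cells with DMSO and 73.6 to 75.2 CPM in *KO* cells with 5-FU, nearly all from *COL1A1*. Leukocyte markers summed to 14.9 to 19.0 CPM with DMSO and 33.3 to 36.0 CPM with 5-FU, nearly all from *CD68*. Endothelial markers summed to 1.0 to 1.47 CPM with DMSO, 6.12 to 6.35 CPM in *WT* and 1.8 to 1.95 CPM in *KO* cells with 5-FU. The part of these markers in the values below was not tested. In RNA of whole cultures, fewer cells that express a gene and less RNA of that gene per cell cannot be told apart.

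Levels are given as CPM (total counts scaled by upper-quartile factors). Differences are log2 fold changes ± SE from the quasi-likelihood test of edgeR with its Benjamini-Hochberg adjusted p (FDR) over 16123 genes. A gene was called when its FDR was below 0.05 and its fold change above 1.5. The comparisons share libraries and are thus not independent of each other.

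**Figure D1:**
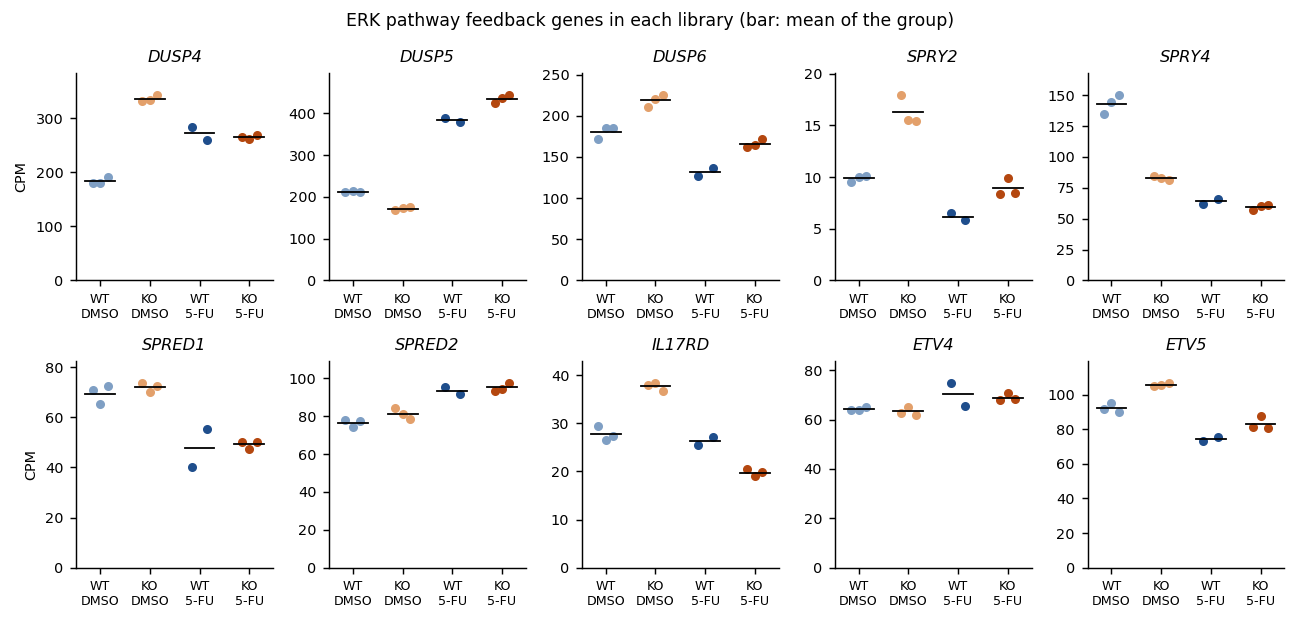
CPM (y axes, from 0, a scale of its own for each gene) of the 10 ERK pathway feedback genes in the 11 libraries, by genotype (*WT* or *KO*) and treatment. Points are libraries and bars are the means of the groups. *DUSP4* was near 185 CPM in *WT* and near 336 CPM in *KO* cells with DMSO, and the libraries with 5-FU lay between these, at 260.3 to 284 CPM.

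*DUSP4*, *DUSP5* and *DUSP6*, which encode phosphatases of ERK, each showed a pattern of its own. *DUSP4* (chr8:29333064-29350684, minus strand), whose product is nuclear, had 180.4, 181 and 192 CPM in *WT* cells with DMSO and 332, 334 and 342.5 CPM in *KO* cells with DMSO. With 5-FU it had 284 and 260.3 CPM in *WT* cells and 265, 262.5 and 269 CPM in *KO* cells. The groups were far apart with DMSO and overlapped with 5-FU, since the level rose from DMSO to 5-FU in *WT* and fell in *KO* cells. In DMSO, *DUSP4* was 1.82-fold higher in *KO* cells (log2 0.86 ± 0.0497, FDR = 1.08e-09). In 5-FU, the difference between the genotypes was -0.03 ± 0.0549 on the log2 scale (FDR = 0.625). After 5-FU, it changed by 0.56 ± 0.0546 in *WT* (FDR = 2.18e-07) and by -0.34 ± 0.0493 in *KO* cells (FDR = 1.79e-05), in both cases by less than the minimum fold change. Without replicate 3 of *WT* cells with DMSO or replicate 3 of *WT* cells with 5-FU, the difference in *WT* cells passed it (0.59 and 0.62). The difference between the responses was -0.90 ± 0.0736 (FDR = 5.7e-07).

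*DUSP5* (chr10:110497907-110511533, plus strand), which encodes a nuclear phosphatase of ERK, was the gene of the 10 with the largest rise after 5-FU in either genotype. It had 210.5, 213.5 and 213 CPM in *WT* and 168, 173 and 175 CPM in *KO* cells with DMSO. With 5-FU, it had 388 and 378 CPM in *WT* and 424, 437 and 443 CPM in *KO* cells. The 4 groups did not overlap, and the order of the genotypes was opposite under the 2 treatments. *DUSP5* rose 1.81-fold in *WT* (log2 0.85 ± 0.0492, FDR = 3.75e-10) and 2.53-fold in *KO* cells (1.34 ± 0.0455, FDR = 5.83e-13). The difference between these responses was 0.49 ± 0.0672 (FDR = 8.54e-05), a 1.4-fold difference and thus not called. Between the genotypes, it differed by -0.30 ± 0.045 in DMSO (FDR = 4.42e-05) and by 0.18 ± 0.0498 in 5-FU (FDR = 0.00645), neither of which was called.

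*DUSP6* (chr12:89347235-89352501, minus strand), the gene of a cytoplasmic phosphatase of ERK, moved in parallel in both genotypes. It had 171, 185 and 185 CPM in *WT* and 210.4, 221 and 225 CPM in *KO* cells with DMSO. With 5-FU, the levels were 127 and 137 CPM in *WT* and 162, 164 and 171 CPM in *KO* cells. The libraries of *KO* cells lay above those of *WT* cells under each treatment, and those with 5-FU below those with DMSO in each genotype. None of these differences reached a 1.5-fold change, with -0.45 ± 0.058 in *WT* (FDR = 5e-06) and -0.40 ± 0.0513 in *KO* cells (FDR = 4.68e-06) after 5-FU, and 0.28 ± 0.0512 in DMSO (FDR = 0.000335) and 0.33 ± 0.058 in 5-FU (FDR = 0.000207) between the genotypes. The responses of the genotypes differed by 0.05 ± 0.077 (FDR = 0.66). The exons of *DUSP6* share 1105 bases with a gene on the opposite strand, and the use of strand in counting is not given in the sources used here, so that reads from these cannot be told apart.

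*SPRY2* and *SPRY4*, which encode Sprouty inhibitors of signaling from receptor tyrosine kinases, went in opposite directions between the genotypes in DMSO. Both fell after 5-FU in *WT* cells. *SPRY2* (chr13:80335976-80341126, minus strand) had the lowest CPM of the 10 genes, with 9.52, 10.1 and 10.1 CPM in *WT* and 17.9, 15.6 and 15.4 CPM in *KO* cells with DMSO. With 5-FU, it had 6.5 and 5.86 CPM in *WT* and 8.36, 9.92 and 8.43 CPM in *KO* cells. The genotypes did not overlap under either treatment, nor did the treatments in either genotype. In DMSO, *SPRY2* was 1.64-fold higher in *KO* cells (log2 0.72 ± 0.0941, FDR = 1.29e-05). In 5-FU, the difference was 0.52 ± 0.114 (FDR = 0.00121), which was not called, and was 0.61 and called without replicate 2 of *WT* cells with 5-FU. After 5-FU, *SPRY2* fell 1.6-fold in *WT* (-0.68 ± 0.113, FDR = 7.44e-05) and 1.83-fold in *KO* cells (-0.87 ± 0.0959, FDR = 8.77e-07). The difference between these responses was -0.19 ± 0.148 (FDR = 0.359).

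*SPRY4* (chr5:142310427-142326455, minus strand) was highest in *WT* cells with DMSO, with 135, 144 and 149.8 CPM, and had 84.9, 83.2 and 81.5 CPM in *KO* cells with DMSO. With 5-FU, it had 61.7 and 66.1 CPM in *WT* and 57, 60.4 and 61.4 CPM in *KO* cells. The genotypes were widely separated with DMSO and lay next to each other with 5-FU. In DMSO, *SPRY4* was 1.72-fold lower in *KO* cells (-0.78 ± 0.0527, FDR = 6.99e-09), and in 5-FU the difference was -0.10 ± 0.0603 (FDR = 0.176). After 5-FU, it fell 2.24-fold in *WT* cells (-1.16 ± 0.0606, FDR = 1.14e-10), the largest fall among the 10 genes. In *KO* cells, the difference was -0.48 ± 0.0542 (FDR = 1.09e-06), below the minimum fold change. The difference between the responses was 0.68 ± 0.0804 (FDR = 1.9e-05).

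*SPRED1* and *SPRED2* encode membrane-associated inhibitors of RAS and RAF signaling, and SPRED1 brings neurofibromin to RAS. *SPRED1* (chr15:38252836-38357249, plus strand) had 65.3 to 73.8 CPM in the 6 libraries with DMSO and 40.2 to 55.1 CPM in the 5 libraries with 5-FU, and the genotypes overlapped under each treatment. It differed between treatments by -0.55 ± 0.0962 in *WT* (FDR = 0.000122) and by -0.55 ± 0.0861 in *KO* cells (FDR = 3.76e-05), neither of which was called. The pair of *WT* libraries with 5-FU stood apart from each other (40.2 and 55.1 CPM), and the difference in *WT* cells was -0.79 and called without replicate 3 with 5-FU, and -0.59 and called without replicate 2 with DMSO. *SPRED2* (chr2:65310851-65432637, minus strand) had 74.2 to 84.4 CPM with DMSO and 91.7 to 97.7 CPM with 5-FU, so that the treatments did not overlap, in the direction opposite to *SPRED1*. Its difference was 0.29 ± 0.0527 in *WT* (FDR = 0.000171) and 0.23 ± 0.0479 in *KO* cells (FDR = 0.000614), below the minimum fold change. Between the genotypes, neither gene passed the FDR threshold under either treatment, with log2 differences from 0.03 to 0.09 and FDRs from 0.144 to 0.702 over all 11 libraries. *SPRED1* differed by 0.05 ± 0.0844 in DMSO. In 5-FU, its difference of 0.05 ± 0.0967 rested on the pair of *WT* libraries that stood apart, and was -0.16 without replicate 2 (FDR = 0.0622) and 0.29 without replicate 3 of these (FDR = 0.0025).

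*IL17RD* (chr3:57089982-57170306, minus strand) changed its order between the genotypes with treatment. It had 29.4, 26.5 and 27.3 CPM in *WT* and 38, 38.4 and 36.6 CPM in *KO* cells with DMSO. With 5-FU, it had 25.5 and 27.1 CPM in *WT* and 20.4, 19.1 and 19.8 CPM in *KO* cells. *KO* cells thus held the highest and the lowest libraries, while those of *WT* cells overlapped between the treatments. After 5-FU, *IL17RD* fell 1.91-fold in *KO* cells (-0.93 ± 0.0672, FDR = 5.59e-09), and in *WT* cells it differed by -0.08 ± 0.0731 (FDR = 0.352). The difference between the responses was -0.85 ± 0.0988 (FDR = 1.65e-05). Between the genotypes, the differences of 0.44 ± 0.0651 in DMSO (FDR = 4.41e-05) and -0.41 ± 0.0744 in 5-FU (FDR = 0.000266) were opposite in sign and both below the minimum fold change.

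*ETV4* and *ETV5* encode PEA3 group transcription factors that act downstream of ERK. *ETV4* (chr17:43527844-43579620, minus strand) had the narrowest range of group means among the 10 genes, 0.147 on the log2 scale, with 62.0 to 65.3 CPM with DMSO and 65.6 to 75 CPM with 5-FU. Its differences ranged from -0.03 to 0.13 over the 5 comparisons and its FDRs from 0.0659 to 0.965. After 5-FU in *WT* cells, the difference was 0.026 without replicate 2 (FDR = 0.705) and 0.22 without replicate 3 with 5-FU (FDR = 0.00153), and in *KO* cells it passed the FDR threshold with TMM factors (0.17, FDR = 0.0178) and DESeq2 (0.18, FDR = 0.0106), below the minimum fold change. *ETV5* (chr3:186046314-186110318, minus strand) had 92, 95.4 and 90.1 CPM in *WT* and 105, 106 and 107 CPM in *KO* cells with DMSO. With 5-FU, it had 73 and 75.5 CPM in *WT* and 81.2, 87.6 and 80.9 CPM in *KO* cells. Like *DUSP6*, *ETV5* was ordered in the same way in both genotypes and under both treatments without overlap, and no difference was called. After 5-FU, it differed by -0.32 ± 0.054 in *WT* (FDR = 9.58e-05) and by -0.35 ± 0.0482 in *KO* cells (FDR = 1.14e-05). Between the genotypes, it differed by 0.20 ± 0.0479 in DMSO (FDR = 0.00316) and by 0.17 ± 0.0541 in 5-FU (FDR = 0.018). Exons of *ETV5* share 164 bases with *DGKG* on the same strand, and those of *ETV4* share 68 bases with *DHX8* on the opposite strand.

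Compared per length (CPM per kb of exons), *DUSP5* was the most abundant of the 10 mRNAs in all 4 groups, with 83.7 ± 0.625 in *WT* and 67.8 ± 1.52 in *KO* cells with DMSO (SD, n = 3). It was followed by *DUSP6* and *DUSP4*, at 46.8 ± 2.09 and 25.4 ± 0.921 CPM per kb in *WT* cells with DMSO. In *WT* cells with 5-FU, *DUSP4* (37.4 ± 2.32, n = 2) was above *DUSP6* (34.2 ± 1.87). *SPRY4*, *ETV4*, *ETV5* and *SPRED2* formed the middle, from 13.9 to 21.8 CPM per kb in *WT* cells with DMSO, and *SPRED1* had 8.96 ± 0.473. *SPRY2* (3.08 ± 0.103) and *IL17RD* (2.9 ± 0.154) were lowest in all 4 groups. Neighbors in this order overlapped between libraries in 2 cases, *SPRY2* and *IL17RD* in *WT* cells with DMSO and *ETV5* and *ETV4* in *KO* cells with DMSO. *SPRY4* held rank 4 in *WT* cells with DMSO and rank 7 in the other 3 groups.

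*KO* cells with DMSO had higher *DUSP4* and *SPRY2* and lower *SPRY4* than *WT* cells with DMSO. Of the 10 genes, 2 were called higher and 1 was called lower, where 9.1% and 4.97% of all 16123 genes were called higher and lower. By the FDR alone, 5 of the 10 were higher and 2 lower, and 3943 and 3529 of all 16123 genes were. The median difference of the 10 genes was 0.14 on the log2 scale and that of all genes 0.03. With the minimum fold change inside the test (glmTreat) or with 1 RUVg factor, *SPRY2* was not called (FDR = 0.303 and 0.285). In 5-FU, 0 of the 10 genes were called higher and 0 lower, where 7.58% and 10.6% of all genes were called. By the FDR alone, 4 genes were higher (*SPRY2*, *DUSP6*, *DUSP5* and *ETV5*) and 1 was lower (*IL17RD*), and 3483 and 4512 of all 16123 genes were. These were the 5 of the 10 genes with an unadjusted p below 0.05 (edgeR). The minimum fold change inside the test and DESeq2 also gave 0 calls of the 10. Of all genes, 478 were called higher and 709 lower with the former, and 1339 and 1332 with DESeq2. The median of the 10 genes was 0.04 and that of all genes -0.05.

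**Figure D2:**
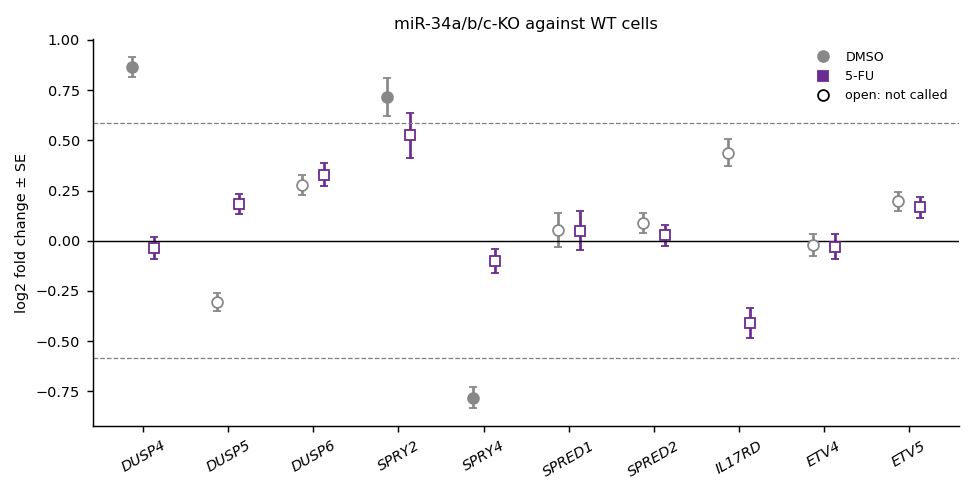
Log2 fold change ± SE (y axis) of *KO* against *WT* cells for each gene (x axis), in DMSO (circles) and in 5-FU (squares). Filled symbols were called (FDR below 0.05 and more than 1.5-fold, dashed lines), open symbols were not. *DUSP4* (0.86), *SPRY2* (0.72) and *SPRY4* (-0.78) are filled in DMSO, and no symbol is filled in 5-FU.

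Exposure to 5-FU was accompanied by higher *DUSP5* and lower *SPRY2* in both genotypes, by lower *SPRY4* in *WT* cells and by lower *IL17RD* in *KO* cells. In *WT* cells, 1 gene was called higher and 2 were called lower, where 18.5% and 9.38% of all genes were called higher and lower. In *KO* cells, 1 was called higher and 2 lower, against 13.3% and 12% of all genes. By the FDR alone, 3 were higher and 5 lower in *WT* cells, where 5143 and 4569 of all 16123 genes were. In *KO* cells, 2 were higher and 7 lower, against 4286 and 5451 of all genes. The median of the 10 genes was -0.20 in *WT* and -0.37 in *KO* cells, whereas that of all genes was 0.03 and -0.06. With 1 RUVg factor, whose variance lay to 98.2% between the treatments, none of these genes was called in either genotype, and 3 of all genes in *WT* and 1 in *KO* cells were. With the minimum fold change inside the test, *SPRY4* but not *SPRY2* was called lower in *WT* cells, where 740 of all genes were. With the identical file kept as labelled, none of the 10 was called in *WT* cells, where 0 of all genes were.

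**Figure D3:**
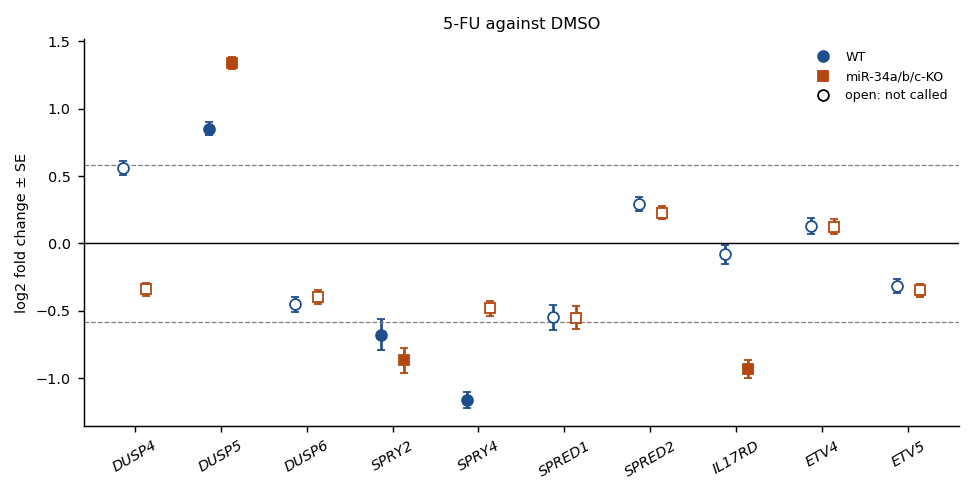
Log2 fold change ± SE (y axis) of 5-FU against DMSO for each gene (x axis), in *WT* (circles) and *KO* cells (squares). Filled symbols were called (FDR below 0.05 and more than 1.5-fold, dashed lines), open symbols were not. The symbols of *DUSP4* lie on opposite sides of 0 (0.56 and -0.34), and those of *SPRY4* (-1.16 and -0.48) and *IL17RD* (-0.08 and -0.93) lie far apart, whereas those of *DUSP6*, *SPRED1*, *SPRED2*, *ETV4* and *ETV5* nearly coincide.

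A different response to 5-FU in the genotypes (interaction) was called for 3 of the 10 genes, and *DUSP5* passed the FDR threshold as well. *SPRY4* was called higher, that is, it fell less in *KO* than in *WT* cells, and *DUSP4* and *IL17RD* were called lower. 3.42% of all genes were called higher and 6.66% lower (551 and 1073 genes, against 676 and 844 with TMM factors and 703 and 674 with DESeq2). By the FDR alone, 1622 of all genes were higher and 2585 lower. The median of the 10 genes was -0.02 and that of all genes -0.09. With the minimum fold change inside the test, *DUSP4* was called and *SPRY4* (FDR = 0.604) and *IL17RD* (FDR = 0.0875) were not, and with the identical file kept as labelled, *SPRY4* was not called (0.14, FDR = 0.865). The differences of *DUSP6*, *SPRED1*, *SPRED2*, *ETV4* and *ETV5* between the responses lay between -0.06 and 0.05, with SEs from 0.0714 to 0.128. That of *SPRED1* was -0.22 without replicate 2 (FDR = 0.0676) and 0.24 without replicate 3 of *WT* cells with 5-FU (FDR = 0.0349).

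Other genes of the pathway were counted in the same fits, in lists written from general knowledge but with earlier results of these data known. Of 8 other phosphatases of MAP kinases, 2 were called higher and none lower after 5-FU in *WT* cells (of all genes 18.5% and 9.38%), and 4 were called higher and 1 lower in *KO* cells (13.3% and 12%). *DUSP14* (1.67 in *WT* and 1.81 in *KO* cells) and *DUSP10*, a phosphatase of p38 and JNK (1.42 and 0.60), were called higher in both. In *KO* cells, *DUSP7* (1.29) and *DUSP8* (1.20) were also called higher and *DUSP9* (-1.18) was called lower. Between the genotypes, 2 were called lower in DMSO (4.97% of all genes), *DUSP9* (-1.34) and *DUSP7* (-0.61). In 5-FU, 1 was called higher (7.58%), *DUSP16* (0.70), and 2 lower (10.6%), *DUSP9* (-2.09) and *DUSP10* (-1.08). The interaction was called for 4, *DUSP7* (0.73) and *DUSP8* (0.69) higher (3.42% of all genes) and *DUSP10* (-0.82) and *DUSP9* (-0.75) lower (6.66%). The median response of this list was 0.36 in *WT* and 0.50 in *KO* cells, opposite in sign to that of the 10 genes. Of these 10, the phosphatase genes *DUSP4*, *DUSP5* and *DUSP6* responded by 0.56, 0.85 and -0.45 in *WT* cells. In *KO* cells, they responded by -0.34, 1.34 and -0.40.

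Of the 4 other family members, *SPRY1*, *SPRY3*, *SPRED3* and *ETV1*, 2 were called higher and 1 lower after 5-FU in *WT* cells (18.5% and 9.38% of all genes) and 1 was called higher and 1 lower in *KO* cells (13.3% and 12%). *ETV1*, the other PEA3 gene, fell from 21.3 ± 1.08 CPM to 8.74 ± 1.63 CPM in *WT* (-1.30 ± 0.117, n = 3 and 2) and from 28.9 ± 0.769 to 7.84 ± 1.13 CPM in *KO* cells (-1.88 ± 0.106), whereas *ETV4* and *ETV5* were not called. *SPRED3* rose in both (1.25 ± 0.175 and 0.70 ± 0.158), where *SPRED1* and *SPRED2* were not called. *SPRY1* rose in *WT* cells (1.22 ± 0.1), where *SPRY2* and *SPRY4* fell. Like *DUSP4*, *SPRY1* was called higher in *KO* cells in DMSO (0.74 ± 0.0959) and lower for the interaction (-0.71 ± 0.135), and it had 14.1 and 14.5 CPM on average in *WT* and *KO* cells with 5-FU. Between the genotypes in 5-FU, 0 of these 4 genes were called or had an unadjusted p below 0.05.

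Of 18 other genes induced by ERK, 6 were called higher and 4 lower after 5-FU in *WT* cells (18.5% and 9.38% of all genes), and 8 were called higher and 2 lower in *KO* cells (13.3% and 12%). The calls of largest size in *WT* cells were *EREG* (-1.77), *HBEGF* (1.61), *EPHA2* (1.48) and *TGFA* (1.34), of which *EREG*, *HBEGF* and *TGFA* encode ligands of the EGF receptor family. In *KO* cells, they were *HBEGF* (2.50), *AREG* (1.58), *EPHA2* (1.44) and *SH2B3* (1.32). In DMSO, 1 was called higher and 5 lower in *KO* cells (9.1% and 4.97%), and those of largest size were *EPHA4* (-1.62), *EREG* (-1.51), *EGR1* (-1.23) and *FOS* (-0.87), the last 2 immediate early transcription factors. In 5-FU, 3 were called higher and 4 lower (7.58% and 10.6%), led by *EPHA4* (-1.40), *HBEGF* (1.18), *MYC* (-0.98) and *UPP1* (-0.72). The interaction was called higher for 5 and lower for 0 (3.42% and 6.66%), led by *AREG* (1.02), *EREG* (0.92), *HBEGF* (0.89) and *EGR1* (0.87). The immediate early gene *EGR1* had 92.4 ± 8.22 CPM in *WT* and 39.3 ± 3.85 CPM in *KO* cells with DMSO (n = 3). With 5-FU, it had 37.8 ± 1.63 CPM in *WT* (n = 2) and 29.3 ± 2.36 CPM in *KO* cells (n = 3). The libraries of *KO* cells with DMSO (36.1 to 43.6 CPM) and of *WT* cells with 5-FU (36.7 to 39.0 CPM) overlapped.

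The 28 genes of the cascade itself, from receptor and adaptors over RAS, RAF, MEK and ERK to the kinases RSK, were counted in the same way. In DMSO, 0 of the 28 genes were called between the genotypes by edgeR, where 9.1% of all genes were called higher and 4.97% lower. Of the 28, 16 had an unadjusted p below 0.05 and 14 passed the FDR threshold alone. By the FDR alone, 3943 of all 16123 genes were higher and 3529 lower in *KO* cells. In 5-FU, 1 was called higher (7.58% of all genes), *KSR1* (0.61), which encodes a scaffold of RAF and MEK, and 1 lower (10.6%), *RASA1* (-0.63), which encodes a GTPase activator of RAS. After 5-FU, 3 were called higher and 2 lower in *WT* cells (18.5% and 9.38%), with *KSR1* (1.23), *HRAS* (0.91), *RPS6KA3* (-0.87) and *EGFR* (-0.72) in the lead. In *KO* cells, 4 were called higher and 1 lower (13.3% and 12%), led by *KSR1* (1.28), *RPS6KA1* (0.85), *HRAS* (0.78) and *RASA1* (-0.72). The interaction was called for 0 of the 28 genes (3.42% and 6.66% of all genes called higher and lower). For it, 11 of the 28 had an unadjusted p below 0.05 and 8 passed the FDR threshold alone. That threshold was passed by 1622 of all 16123 genes as higher and 2585 as lower. The median response of the cascade genes was -0.04 in *WT* and -0.03 in *KO* cells.

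**Figure D4:**
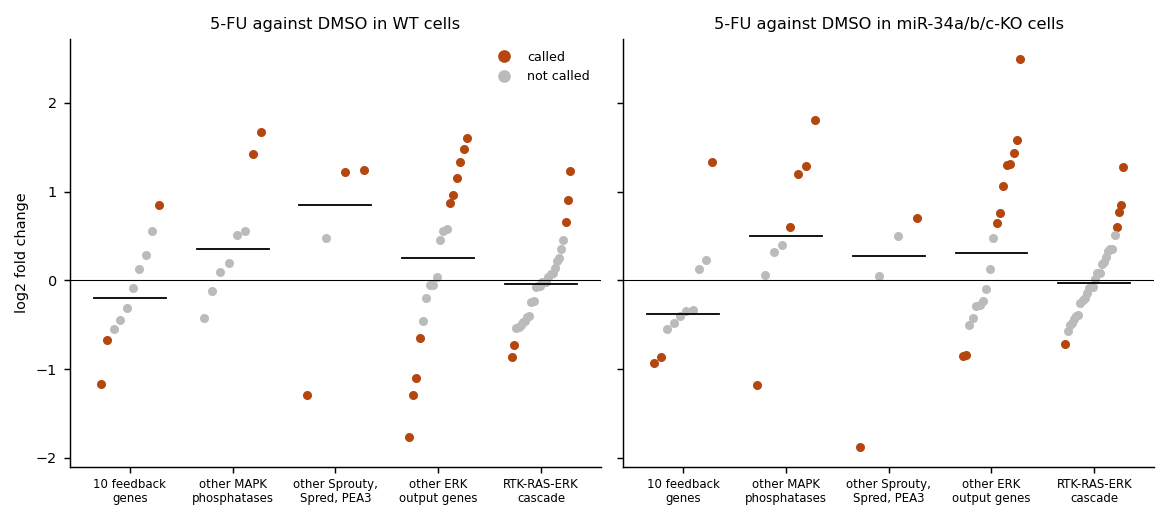
Log2 fold change (y axes) of 5-FU against DMSO in *WT* (left) and *KO* cells (right) for the 10 feedback genes and 4 lists of other pathway genes, sorted within each list. Each point is a gene, called (red) or not (grey), and bars are the medians of the lists. The median of the feedback genes is below 0 in both genotypes (-0.20 and -0.37) and that of the other phosphatases above 0 (0.36 and 0.50).

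The members with the widest range of group means were *SPRY2* (1.39 on the log2 scale), *DUSP5* (1.34) and *SPRY4* (1.26). For these, the tested genes with the most similar 4 group means were found by the root mean square distance of centered log2 CPM, computed over 4 groups of 11 libraries. They were *ADAM22* (distance 0.0355), *AC006230.1* (0.0432) and *OSTC* (0.0434) for *SPRY2*, *CMBL* (0.0473), *FGD6* (0.052) and *ACSL6* (0.0605) for *DUSP5*, and *AC136475.3* (0.0566), *MAD2L1* (0.0608) and *JPH1* (0.065) for *SPRY4*. The means of *MAD2L1*, a spindle checkpoint gene, were 168 and 104 CPM in *WT* and *KO* cells with DMSO and 79.3 and 66.8 CPM with 5-FU.

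The genes around each of the 10 were compared between the genotypes as well. For 40 tested genes around each member, the median difference between the genotypes lay between -0.18 and 0.10 under both treatments. Around *DUSP4*, it was -0.06 in DMSO, where *DUSP4* itself was at 0.86, around *SPRY2* it was 0.00 (0.72) and around *SPRY4* 0.07 (-0.78). The 3′ UTRs of the 10 genes had a median length of 2487.5 bases, against 1281 bases over the tested genes with a 3′ UTR. The AU-rich word ATTTA, which is found in unstable mRNAs, occurred 1.64 times per kb in the median of the 10 genes. The median was 1.69 times per kb over the 12645 tested genes with a 3′ UTR of at least 100 bases. Of the 10 genes, *SPRED1* had the highest value (4.3 per kb), and *DUSP5* and *ETV4* had none.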

How the data were processed

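RNA of HCT116 cells was sequenced by the authors from 12 libraries (random-primed), which were assigned to 4 groups by their titles. The authors used CLC Genomics Workbench to map reads (GRCh38) and deposited whole-number counts per gene symbol, without normalization. Of the 12 files, 1 was identical to another and was left out. Genes reaching 20 counts in 1 or more libraries (16123 of 60580) were scaled with upper-quartile factors and fitted with edgeR 4.0.16 (glmQLFit and glmQLFTest, two-sided, R 4.3.3) in 1 model with a mean per group, with Benjamini-Hochberg adjustment per comparison. A call required FDR below 0.05 and a fold change above 1.5. The filter, the scaling and the use of edgeR for the interaction follow the paper's methods, which give DESeq2 after RUVg for the differences between states, both used here as alternatives and apart from each other. The script was tested on simulated data. CPM and log2 CPM (prior count 2) came from edgeR. The biological coefficient of variation was 6.72%, and the depth (22831415 to 39064210 counts) gave at least 171 counts for each gene described. The alternatives were TMM factors, DESeq2 1.42.0, other filters and fold minimums, RUVg with 1 factor, the replicate number as a block, the identical file kept and each library left out. Positions and 3′ UTRs were taken from GENCODE release 44 (Ensembl canonical transcripts), microRNAs and promoters from RefSeq tables (GRCh38.p14). The 10 genes and the gene lists were chosen with earlier results of these data known. Named were all 10 genes and, of each list, at most 4 called genes with the largest change per comparison. Of 4 lists of cell type markers, the values are given as a check of the cells. Fold changes and p-values computed by the authors were not used.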

Additional observations from a re-analysis of the deposited data

Results flagged for a closer look

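The response to 5-FU differed between *WT* and *KO* cells by the interaction test of edgeR for 3 of the 10 genes. For *DUSP4*, the response in *KO* cells minus that in *WT* cells was -0.90 on the log2 scale (FDR = 5.7e-07), with a lower level after 5-FU in 3 of 3 libraries of *KO* cells and a higher level in 2 of 2 libraries of *WT* cells. For *IL17RD*, it was -0.85 (FDR = 1.65e-05), with 3 of 3 libraries of *KO* cells below all libraries with DMSO. For *SPRY4*, it was 0.68 (FDR = 1.9e-05), and the libraries with 5-FU lay below those with DMSO in both genotypes.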

How the results depend on the processing

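Not every alternative could move every value, since other fold minimums keep the direction and a library left out often lies outside the comparison. Over 21 alternatives, 964 of 1050 values of the 10 genes kept their direction and their side of the call, 15 lost the call, 26 gained it and 45 changed sign. Of the latter, 39 belonged to differences that did not pass the FDR threshold, among them that of *DUSP4* between the genotypes in 5-FU, and the other 6 were all from 1 RUVg factor. With it, the response was -0.67 for *DUSP4*, 0.31 for *DUSP6* and 2.73 for *SPRED1* in *WT* cells, and 0.28 for *DUSP6*, 0.083 for *SPRY4* and 2.36 for *SPRED1* in *KO* cells. It left 1 gene called higher between the genotypes in DMSO (of all genes 783), and 0 higher and 0 lower after 5-FU in either genotype (3 and 0 in *WT*, 1 and 0 in *KO* cells). Its factor lay to 98.2% between the treatments. Without a minimum fold change, 5 were called higher and 2 lower between the genotypes in DMSO (of all genes 3943 and 3529) and 4 and 1 in 5-FU (3483 and 4512). After 5-FU, 3 and 5 were in *WT* (5143 and 4569) and 2 and 7 in *KO* cells (4286 and 5451). For the interaction, 2 and 2 were (1622 and 2585). With the minimum inside the test (glmTreat), 1 was called higher in DMSO (of all genes 602) and 1 lower after 5-FU in *WT* cells (740). For the interaction, 0 were called higher and 1 lower with it (135 and 154). With the identical file kept as labelled, 0 were called higher and 0 lower after 5-FU in *WT* cells (of all genes 0 and 0). It gave 0 called higher for the interaction (185).

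Leaving out 1 library at a time gave 0 to 1 genes called higher between the genotypes in 5-FU, and 1 to 2 called higher and 2 to 3 called lower after 5-FU in *WT* cells. No call of the 10 genes was lost, and the gains are given with *DUSP4*, *SPRY2* and *SPRED1*. Where 1 library of *WT* cells with 5-FU was left, it was assumed to vary like the other groups.

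With the replicate block, the same 2 genes were called higher and 1 lower in DMSO as without it, and it changed no call in the other comparisons, nor did a block with the numbers of the column names inside the files, an alternative added after the data were seen. Deviations from the group means in samples with the same number correlated with r from -0.161 to 0.256, over 0.1 in 7 of 15 pairs. With 2 libraries, those of *WT* cells with 5-FU deviate from their mean in exactly opposite ways, so that their values mirror each other. Whether the numbers pair the samples cannot be decided from these values. TMM factors, DESeq2 and both other filters on counts also changed no call of the 10 genes. TMM factors shifted their values by at most 0.06 and DESeq2 by at most 0.08. The depth does not limit these genes, the lowest of which, *SPRY2*, had at least 171 counts, but *WT* cells with 5-FU rest on 2 libraries.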
